A study of Mus musculus with 2 samples.

Results

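At 825 promoters bound by USF1 in CH12.LX cells, the bases from 50 bp before to 50 bp after the peak summit held neither of the E-boxes that USF proteins bind, CACGTG (here the CG E-box) and CACATG or its reverse complement CATGTG (the CA E-box). These peaks were taken from the mm9 list of 10624 peaks by position and sequence alone. A summit had to lie within 1 kb of the 5′ end of a protein-coding transcript (Gencode vM1), which 3082 summits did. Of these, 951 had neither E-box within 50 bp on each side, and 126 were dropped because 5′ ends of different protein-coding genes lay on opposite strands within 1 kb. The remaining 825 peaks made up 7.77% of the list, out of 2746 unidirectional promoter peaks in all, and their nearest genes were 811 different genes, 14 of them with 2 such peaks. For comparison, 1559 unidirectional promoter peaks held the CG E-box, 362 held the CA E-box only, and 817 peaks farther than 1 kb from any coding 5′ end (distal peaks) held neither.

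CH12.LX is a female mouse B-cell lymphoma line of strain B10.H-2aH-4bp/Wts, and the study has 1 group of 2 biological replicates precipitated with an antibody to USF1. The age of the mouse is unknown per the labels, no treatment is named, and both replicates come from the same line, so p-values describe the regions of this line and not B cells in general. Lists of regions carry no expression values, so the labelled cell type could not be checked against its markers. Read counts are not in the lists, the sequencing depth is unknown, and control libraries were not used here.

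USF1 is a basic helix-loop-helix leucine zipper protein that binds DNA as a dimer, alone or with its relative USF2. Each subunit contacts an arm of the palindrome CACGTG, and the bases next to the core add to affinity, with GT before and AC after the core preferred. USF1 sites are common close to transcription start sites, where CpG-rich DNA also carries sites for SP/KLF, ETS, NRF1, NF-Y and CREB-type factors.

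Many of the strongest peaks without either USF E-box carried a core that differs from CACGTG at 1 base, followed by the bases AC that USF proteins prefer. The sites of 15 of the 25 strongest peaks, all those with such a core followed by AC, are shown first because they share this flank, then those of Suz12 and Ddit3, which are weaker and centre on CGCGTG. Each is written 5′ to 3′ on the strand that places the intact arm GTG at the right of the core. Capitals mark the altered core, and positions and bases are those of mm9 (NCBIM37). For comparison, the site at Zfp207 is a CG E-box promoter peak whose core is CACGTG.
Zfp207 (CG E-box), chr11:80196747-80196768, plus strand: gcctgcgtCACGTGacccgcac
Dnajc13, chr9:104165286-104165307, minus strand, summit outside transcripts: gacagggtCTCGTGacggccgg
Nrd1, chr4:108673170-108673191, plus strand, summit outside transcripts: tttctgcaAACGTGacggccgt
Pet112l, chr3:85378032-85378053, minus strand, summit in an intron: gtcccggtCAGGTGacccaccc
Rnf185, chr11:3352335-3352356, minus strand, summit in an untranslated exon: ctccgcgtCAGGTGaccaagtt
Myst2, chr11:95171566-95171587, minus strand, summit outside transcripts: ctaaaggtCAGGTGacgcaagc
Skap2, chr6:51962752-51962773, minus strand, summit outside transcripts: gggccggtCAGGTGacacagct
Rnf181, chr6:72312539-72312560, plus strand, summit outside transcripts: ggataagtCAGGTGaccaaaga
Ifi27l1, chr12:104672369-104672390, minus strand, summit outside transcripts: agatacacCCCGTGactgaaga
Nanp, chr2:150865146-150865167, minus strand, summit outside transcripts: ggaagggtCAGGTGacctccga
Ncl, chr1:88255989-88256010, plus strand, summit in an untranslated exon: agggggtcCTCGTGacttcggc
Ift88, chr14:58042854-58042875, minus strand, summit outside transcripts: gccggaagCTCGTGaccggaag
Map1lc3b, chr8:124114330-124114351, minus strand, summit in an intron: agccgagtCAGGTGactcgcgg
Swap70, chr7:117365208-117365229, plus strand, summit in an untranslated exon: gcagcggtCAGGTGaccgcgcg
Rab22a, chr2:173485337-173485358, plus strand, summit in an untranslated exon: ggggaggtCAGGTGacccagct
Dhps, chr8:87595592-87595613, minus strand, summit outside transcripts: cacttggtCTCGTGaccttggg
Suz12, chr11:79806472-79806493, plus strand, summit outside transcripts: agcgcctcCGCGTGactgacgg
Ddit3, chr10:126727625-126727646, plus strand, summit outside transcripts: cgcgaagcCGCGTGacccaaag

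Arl8b, Ap3d1 and Psap had no such core and carried another E-box of the form CANNTG, shown because the flanks recur around a different centre.
Arl8b, chr6:108733065-108733086, minus strand, summit in an untranslated exon: cagcgggtCATATGactcgccc
Ap3d1, chr10:80204994-80205015, plus strand, summit outside transcripts: cggtgggtCAGCTGacggagag
Psap, chr10:59740440-59740461, minus strand, summit in an untranslated exon: cagaacgtCAGCTGaccagacg

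The whole summit windows of 3 promoters that lie outside annotated exons show how these cores sit among other promoter strings. They are written on the strand of the gene, with near E-boxes (defined below) and the arm GTGAC or GTCAC in capitals. The Nrd1 window (chr4:108673145-108673245, plus strand, 65 bp upstream of the 5′ end) also holds a CCAAT box. The Rnf181 window (chr6:72312490-72312590, minus strand) lies 114 bp upstream. The Stat3 window (chr11:100801072-100801172, minus strand) lies 268 bp upstream and holds no near E-box.
Nrd1: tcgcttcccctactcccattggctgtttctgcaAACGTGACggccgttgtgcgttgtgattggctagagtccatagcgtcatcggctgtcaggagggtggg
Rnf181: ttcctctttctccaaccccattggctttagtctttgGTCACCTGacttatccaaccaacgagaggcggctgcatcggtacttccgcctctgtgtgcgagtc
Stat3: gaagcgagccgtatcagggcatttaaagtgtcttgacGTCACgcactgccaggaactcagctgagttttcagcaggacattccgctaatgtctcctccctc

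Most of these promoter peaks were weak, and a small number were strong. The signal, the authors' own value for each peak in the mm9 list, had a median of 47.2 (quartiles 34.8 and 90.3), against 212 (69.6 and 841) at CG E-box promoter peaks and 75.5 (44.6 and 205) at CA E-box promoter peaks. Distal peaks without either E-box had a median of 46.6 (34.4 and 73.6). Signals above 500 were reached by 35 of the 825 promoters (4.24%) and by 532 of the 1559 CG E-box promoters (34.1%). Signals under 50 were found at 448 (54.3%) and 241 (15.5%). The distributions overlapped, and the promoters without either USF E-box were concentrated near the bottom of the list. These are descriptions with no test.

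The 25 strongest peaks had signals from 603 to 2318 and ranked between 111 and 804 in the whole list. They lay at Dnajc16, Dnajc13, Nrd1, Pet112l, Rnf185, Myst2, Ybx1, Skap2, Rnf181, Ifi27l1, Parp6, Arl8b, Nanp, Fig4, 0910001L09Rik, Ncl, Ift88, Map1lc3b, Swap70, Ccnt1, Stat3, Capn10, Acap2, Rab22a and Dhps. Of these 25, 23 held a near E-box, 15 held a near E-box followed by AC, and 18 had the summit within 100 bp of the nearest 5′ end. The core CAGGTG was present at 14 of them.

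The named genes have varied roles. Dnajc13, a J-domain co-chaperone of endosomes, had a signal of 1987. Arl8b, a small GTPase that moves lysosomes, had 951, and Fig4, a phosphoinositide phosphatase of the endolysosomal system, had 854. Map1lc3b, which encodes the autophagosome protein LC3B, had 694. Rab22a, an endosomal GTPase, had 614. Myst2, a histone acetyltransferase, had 1265, Ccnt1, the cyclin of the elongation factor P-TEFb, had 683, and Stat3, a signal-activated transcription factor, had 677. Ncl, nucleolin (762), Ybx1, a cold-shock RNA-binding protein (1200), and Dhps, an enzyme of hypusine formation on eIF5A (603), act on RNA and translation. Swap70, a signalling protein of activated B cells, had 685. At the other end of the list, Pitpnb, a phosphatidylinositol transfer protein, had 29.1, and Gemin5, an RNA-binding subunit of the SMN complex, had 29.0.

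Peaks near the limits of the rule are described by their values. The summit farthest from a 5′ end was at Rap1gap, 995 bp away, with a signal of 190. At Dnajc16, the strongest of the 825, the centre of a CG E-box lay 48.5 bp from the summit, so the hexamer crossed the edge of the window. Just inside the limit, Dyrk1b held a CG E-box centred 47.5 bp from its summit and had a signal of 51.6. In all, 11 of the 825 had either E-box across the window edge or centred at most 56 bp from the summit, and 52 (6.30%) at most 100 bp. The Dnajc16 signal is thus that of a promoter with an intact E-box at the window edge.

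**Figure D1:**
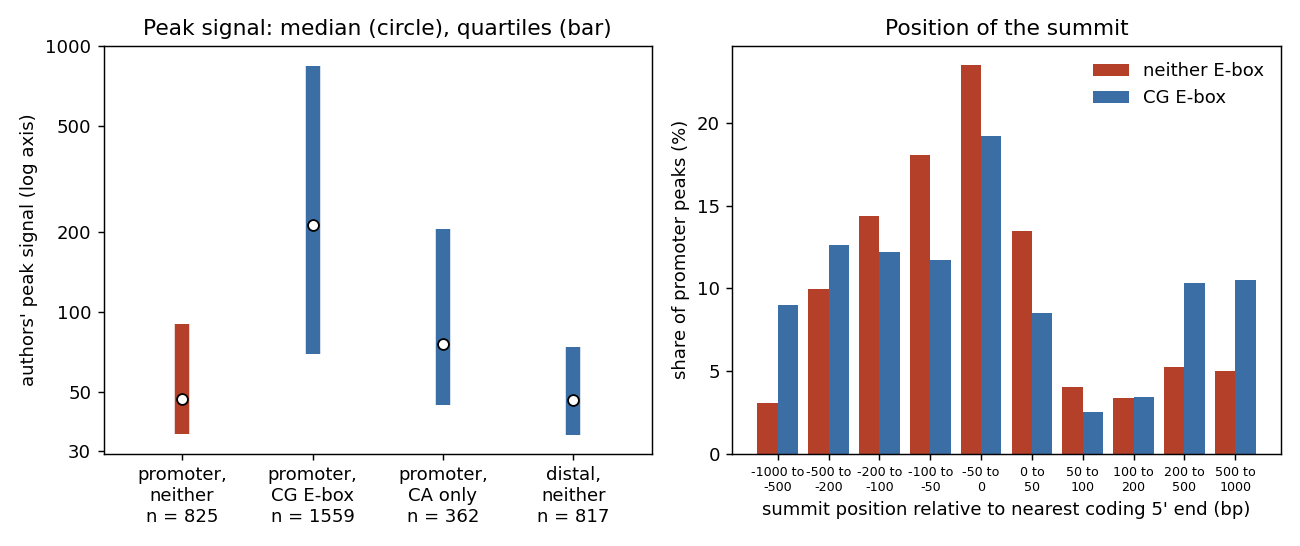
Left, the authors' peak signal (log axis) for promoter peaks with neither E-box, with the CG E-box, with the CA E-box only, and for distal peaks with neither, as median (circle) and quartiles (bar). Right, the share of promoter peaks (%) by position of the summit relative to the nearest coding 5′ end (bp). Peaks without either E-box had a median signal of 47.2 against 212 for the CG E-box, and 23.5% of them lay within the 50 bp upstream of a 5′ end against 19.2%.

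The summits without either USF E-box lay closer to the 5′ end of the gene than those with the CG E-box. Within 100 bp lay 487 of 825 (59.0%, 95% Wilson interval 55.6 to 62.3), against 655 of 1559 CG E-box peaks (42.0%, 39.6 to 44.5). The odds ratio was 1.99 (1.67 to 2.37, Fisher's exact test, two-sided, p = 2.64e-15). The median absolute distance was 75 bp, against 145 bp. The summit was upstream of the 5′ end at 569 of the 825 (69.0%), with a median position 39 bp upstream, and it fell in an untranslated exon at 201 (24.4%), an intron at 144 (17.5%) and a coding exon at 24 (2.91%). Within 5 bins of signal the odds ratio was 3.34.

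Close to the 5′ end, peaks with the CG E-box were much stronger than those without either. From 50 bp upstream to the 5′ end, the median signal was 823 at 300 CG E-box peaks and 50.1 at 194 peaks without either USF E-box. Between 500 and 1000 bp upstream the medians were 83.6 (140 peaks) and 50.1 (25 peaks). The signal of the CG E-box peaks thus varied with distance, and that of the peaks without either USF E-box stayed between 40.9 and 53.5 in all 10 distance bins.

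The summit windows were rich in GC, and their surroundings in CpG. In the windows the median GC share was 66.3%, against 63.4% at CG E-box promoters, 55.4% at CA E-box promoters and 52.5% at distal peaks without either USF E-box. Over the surrounding 1 kb, the ratio of observed to expected CpG had a median of 0.752, 0.706, 0.527 and 0.235 in the same order. Composition differs between the windows compared below, so the near E-boxes, motif strings and top hexamers are also given against promoters of like GC share. The flanks, the CANNTG strings with flanks and the comparisons with other peaks are not matched for GC. No comparison is matched for CpG, which many of the strings contain.

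Chromosome 11 carried 131 of the 825 peaks (15.9%), while it holds 7.39% of protein-coding genes and 11.4% of the CG E-box promoter peaks. Chromosome 16 carried 40 (4.85%, against 3.01% of genes). The median signal of the peaks was 42.6 on chromosome 11 and 43.7 on chromosome 16. Neither chromosome had a higher median than the 47.2 of all 825.

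The question that the sequence comparisons address is what the summits hold in place of the E-box. Hexamers that differ from CACGTG at 1 base, other than the CA E-box, are called near E-boxes here. There are 8 when both strands are merged, written with the intact arm GTG last. At least 1 of them occurred in 571 of the 825 summit windows (69.2%, 66.0 to 72.3), in 202 of the windows centred 500 bp upstream of the same summits (24.5%, exact McNemar p = 3.93e-70), and in 444 of the 1559 CG E-box summit windows (28.5%). Against CG E-box peaks the odds ratio was 5.64 (4.68 to 6.82, Fisher's exact test, adjusted p = 1.72e-81), and within 5 bins of signal it was 7.08. At CA E-box promoter peaks the share was 29.6% (107 of 362, odds ratio 5.35, Fisher's exact test, adjusted p = 2.97e-36).

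Of the 8 near E-boxes tested (exact McNemar, Benjamini-Hochberg), 6 were more frequent at the summit than upstream, which is 75.0% of those tested. The core CGCGTG was found in 25.6% of summit windows and 3.03% upstream (exact McNemar, adjusted p = 1.11e-39). For CAGGTG the shares were 22.9% and 6.79% (2.65e-19). CCCGTG was found in 14.7% and 2.91% (7.08e-17), and CTCGTG in 12.1% and 2.91% (8.50e-13). These 4 were the common ones. GACGTG was found in 4.85% and 1.45% (0.000144), and AACGTG in 3.88% and 2.06% (0.0457). CAAGTG was less frequent at the summit, at 2.79% against 6.42% (0.00102), and TACGTG gave 1.70% and 1.94% (0.851). The strongest peak with each was at Dnajc16 for CGCGTG, Pet112l for CAGGTG and CCCGTG, Dnajc13 for CTCGTG, Usp38 for GACGTG and Nrd1 for AACGTG.

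Of these 6 calls, the 4 with the highest shares were made under all 8 alternatives tried. AACGTG was called in 1 of them and GACGTG in 5. The same 4 were also more frequent than at promoters without any USF1 peak, as were AACGTG and TACGTG. There, 18165 windows without either E-box, centred 39 bp upstream of the first 5′ end of each gene, held CGCGTG in 4.91%, CAGGTG in 6.88%, CCCGTG in 3.70% and CTCGTG in 2.33%. Within 5 bins of GC share, the odds ratios of these 4 were 4.37, 4.25, 3.13 and 4.61 (Mantel-Haenszel chi-square test, adjusted p-values from 3.10e-68 to 4.66e-28), and GACGTG did not pass (1.38, adjusted p = 0.0810). Among windows of all 22359 protein-coding promoters, the shares were 5.60%, 6.70%, 3.99% and 2.59%.

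The flank AC followed the altered core more often at these peaks than at promoters without a peak. Of the 99 peaks with a CTCGTG copy whose flanks lay in the window, 46 (46.5%, 37.0 to 56.2) had AC directly after it. Of 406 copies at promoters without a peak, 26 (6.40%) did (odds ratio 12.6, 6.98 to 23.1, Fisher's exact test, adjusted p = 3.60e-19). For CAGGTG the shares were 35.7% (66 of 185) and 13.2% (odds ratio 3.65, Fisher's exact test, adjusted p = 5.32e-12). The higher share was found for other cores too. For CCCGTG they were 33.3% and 9.69% (9.82e-10), for CGCGTG 25.6% and 3.37% (3.74e-20), and for AACGTG 34.4% and 5.24% (9.66e-06). The difference did not pass the test for GACGTG (adjusted p = 0.0558 by the same exact test) or for CAAGTG (0.468) or TACGTG (1.0). The flank was looked at after the sites of the strongest peaks had been seen.

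The bases GT before the core were found most often at CAGGTG peaks. They preceded this core in 75 of 185 peaks (40.5%) and in 3.42% of the copies at promoters without a peak, and both flanks together were found in 30 peaks (16.2%, against 0.501%). They preceded CTCGTG in 10.1%, CCCGTG in 11.1% and CGCGTG in 4.35%, against 3.45%, 3.69% and 1.97% at promoters without a peak. For AACGTG the shares were 9.38% and 2.25%. GACGTG (15.4% and 17.0%), CAAGTG (4.55% and 5.31%) and TACGTG (0% and 5.23%) had no higher share at the peaks. The shares of GT were not tested. The 30 peaks with both flanks around CAGGTG had a median signal of 194, against 47.2 for all 825. Pet112l, a subunit of mitochondrial glutamyl-tRNA amidotransferase, Rnf185, an ubiquitin ligase of the endoplasmic reticulum, and Myst2 are among them.

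A near E-box followed by AC was present in 223 of the 825 windows (27.0%, 24.1 to 30.2), in 9 upstream windows (1.09%, exact McNemar p = 2.06e-55), and in 396 of the 18165 windows at promoters without a peak (2.18%). The arm GTGAC by itself, on either strand, was present in 380 (46.1%), 112 (13.6%) and 3357 (18.5%). It overlaps the AC-flanked near E-boxes by construction.

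These peaks lack the USF E-boxes but not all E-boxes. An E-box of the general form CANNTG was present in 337 of the 825 windows (40.8%, 37.5 to 44.2) and in 277 upstream windows (33.6%, exact McNemar p = 0.0027). At promoters without a peak the share was 27.5% (odds ratio within GC bins 2.42, Mantel-Haenszel chi-square test, p = 6.14e-33). CAGGTG, counted above as a near E-box, also has this general form and was in 189 of the 825 windows. Whether proteins other than USF1 recognise these copies was not tested. CAAATG was less frequent at the summit (1.70%) than upstream (4.97%, exact McNemar, adjusted p = 0.000947). Some CANNTG strings had the flanks of a USF site. With T before and A after the core, TCACCTGA was present in 57 summit windows (6.91%) and no upstream window (exact McNemar, adjusted p = 1.11e-16), TCAGCTGA in 37 (4.48%) and none (5.82e-11), and TCAGATGA in 12 (1.45%) and 1 (0.00911). At a floor of 3 windows, a count of 0 among 825 allows a share of up to 0.364%. TCATATGA was found in 3 windows, among them Arl8b, and in 1 upstream window (0.833). Among all promoters without a peak, TCACCTGA was found in 0.341%, TCAGCTGA in 0.237% and TCAGATGA in 0.270%. Without regard to flanks, CAGCTG was found in 12.4% of summit windows and CAGATG in 4.97%, against 4.73% and 5.33% upstream (exact McNemar, adjusted p = 1.72e-07 and 0.824). TCACCTGA contains the near E-box CACCTG, so its count is not separate from the one above. The tests of CANNTG strings were not planned, and peaks whose sites are printed above are in the counts.

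**Figure D2:**
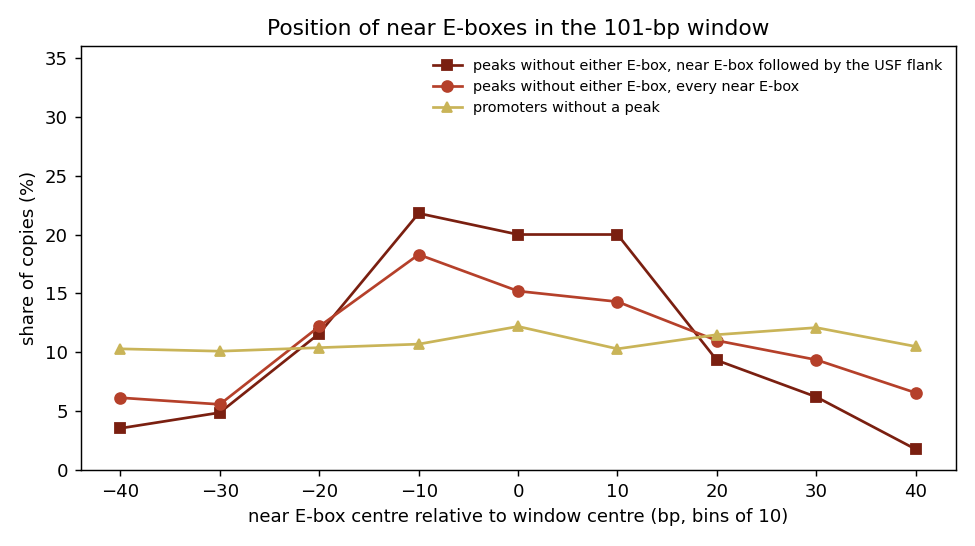
Share of near E-box copies (%) by their position relative to the centre of the summit window (bp, bins of 10), for all near E-boxes at peaks without either E-box, for those followed by AC, the flank that USF proteins prefer, and for promoters without a peak. Within 15 bp of the centre lay 61.8% of the copies followed by AC and 33.2% of the copies at promoters without a peak.

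As a group, near E-boxes lay closer to the summit than to the centre of windows without a peak. Taking for each near E-box the copy closest to the summit, 342 of 715 copies (47.8%, 44.2 to 51.5) had their centre within 15 bp, and 139 of 225 copies followed by AC did (61.8%, 55.3 to 67.9). In the windows of promoters without a peak, whose centre has no such meaning, the share was 33.2% (1565 of 4720 copies, 31.8 to 34.5). The median offset was 13.5 bp for CAGGTG and CTCGTG, 14.5 bp for CGCGTG, 16.5 bp for CCCGTG and 27.5 bp for GACGTG. The first 2 intervals do not reach the third. The shares of single cores, which were not tested, varied. Within 15 bp lay 54.1% of CAGGTG, 54.5% of CTCGTG, 50.7% of CGCGTG and 42.7% of CCCGTG copies, against 30.9 to 37.3% at promoters without a peak. The 4 rarer cores, with 14 to 39 copies each, had shares near or below those of promoters without a peak, at 37.5% against 35.2% for AACGTG, 36.4% against 32.2% for CAAGTG, 28.6% against 34.0% for TACGTG and 23.1% against 31.5% for GACGTG.

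Strings of other promoter factors were also compared between summit and upstream windows. Of 23 motif strings searched on both strands, 10 (43.5%) were more frequent at the summit and 2 less frequent (exact McNemar, Benjamini-Hochberg). The GC box of SP/KLF factors, GGGCGGG, was present in 204 windows (24.7%) and 28 upstream (3.39%, exact McNemar, adjusted p = 8.47e-35). The CCAAT box of NF-Y, read as CCAATCA or as CCAATGA, was found in 83 and 11 (10.1% and 1.33%, 9.20e-14), and the ETS string CCGGAAGT in 53 and 4 (6.42% and 0.485%, 8.87e-12). The CRE, TGACGTCA, was found in 25 and 1 (2.31e-06), and the NRF1 string GCATGCGC in 25 and 2 (1.44e-05). The antioxidant response element GCNNNGTCA (11.8% and 2.30%), the E2A E-box CAGCTG given above, the CTCF core AGGGGGC (6.55% and 1.58%), the YY1 string AANATGGC (3.39% and 1.33%) and the THAP11/ZNF143 string ACTACAA (2.42% and 0.485%) completed the 10. The TATA box TATAAA (1.09% and 5.82%) and the RUNX string TGTGGTT (0.970% and 3.27%) were less frequent at the summit.

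Several of these strings share bases with the USF-type sites. Of the 25 peaks with a CRE, 23 had it overlapping a near E-box or the arm GTGAC by 3 or more bases, as did 56 of the 97 with an antioxidant response element. No copy of the ETS, CCAAT, YY1 or E2A string overlapped one by that measure, and 3 of 204 peaks with a GC box had such an overlap. The measure leaves out other CANNTG strings with USF flanks. The E2A string is the core of TCAGCTGA, present in 37 windows, so it is not separate from such sites. The GC box, ETS and CCAAT counts thus share few or no bases with those of the near E-box.

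Against promoters of like GC share without a peak, 4 of the 10 strings were no longer more frequent. The GC box was found in 24.7% of the peaks and 21.1% of the promoters without one, but within GC bins it was less frequent at the peaks (odds ratio 0.613, Mantel-Haenszel chi-square test, adjusted p = 5.04e-07), the reverse of its direction against the upstream windows. By the same chi-square test NRF1 (odds ratio 0.999, adjusted p = 0.921), the CRE (1.53, 0.121) and the CTCF core (0.724, 0.0612) did not pass. ETS (1.85, 0.000195), CCAAT (1.59, 0.000475), YY1 (2.36, 0.000167), THAP11/ZNF143 (2.11, 0.00612), the E2A E-box (2.66, 1.42e-17) and the antioxidant response element (2.32, 1.05e-12) remained more frequent. The nuclear receptor string AAGGTCA (3.28, 1.95e-05) and AP-1, TGANTCA (1.74, 0.0396), passed in this comparison and not in that with upstream windows. AAGGTCA overlapped a near E-box or GTGAC at 9 of the 18 peaks that held it. Among all 22359 promoters, 22.4% of windows held the GC box, 7.06% a CCAAT box and 2.94% the ETS string.

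**Figure D3:**
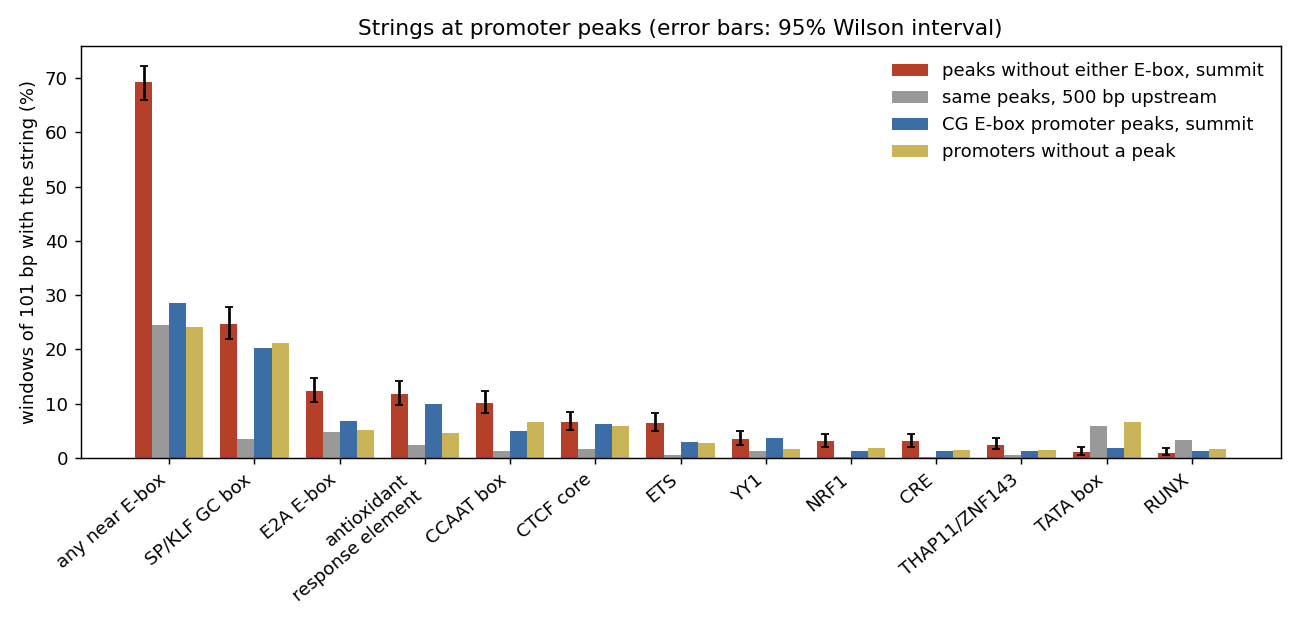
Share of windows of the same length (%) with any near E-box and with each motif string whose share differed between summit and upstream windows, at summits without either E-box (95% Wilson interval), 500 bp upstream of them, at CG E-box promoter summits and at promoters without a peak. Any near E-box was found at 69.2% of the summits without either E-box and at 24.2 to 28.5% of the other windows, while the SP/KLF GC box was at 24.7%, 20.3% and 21.1% of the 3 kinds of promoter window and 3.39% upstream.

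Compared with CG E-box promoter peaks, 5 of 23 motif strings (21.7%) differed, and each was more frequent without either USF E-box. CCAAT boxes were found in 10.1% of windows against 4.87% (odds ratio 2.18, 1.56 to 3.06, Fisher's exact test, adjusted p = 5.98e-05). The E2A E-box CAGCTG was found in 12.4% against 6.86% (1.91, Fisher's exact test, adjusted p = 0.000144), ETS in 6.42% against 2.95% (2.26, 0.000672), the CRE in 3.03% against 1.22% (2.53, 0.0197) and NRF1 in 3.03% against 1.35% (2.29, 0.0326). The GC box just missed the threshold (24.7% against 20.3%, 0.0551). Within 5 bins of signal, 5 strings again differed. CCAAT (odds ratio 3.11, Mantel-Haenszel chi-square test), ETS (2.96) and E2A (2.22) were among them, with the GC box (1.87) and the antioxidant response element (1.82) in place of the CRE (adjusted p = 0.140) and NRF1 (0.166). The count was 3 when only the stronger 50% of the mm9 peaks entered, and 3 with summits within 500 bp of a 5′ end.

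The factors' example promoters are as follows. CCAAT boxes lay at the summits of Nrd1, a metalloendopeptidase, Ybx1 and Ier5, an immediate early gene. ETS strings lay at Rnf185, Myst2 and Ift88, a component of intraflagellar transport. YY1 strings lay at Skap2, Fig4 and Rab22a. Parp6, a mono-ADP-ribosyltransferase, had the strongest peak with the NRF1 string (962), and the next, at Arhgdia, had 158. Stat3 had the strongest peak with a CRE (677), and the next had 84.1. Among the 165 strongest peaks, 1 held a CRE, and among the 165 weakest, 10 did.

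Among all hexamers, the one that joins CGTG to the AC flank ranked first. Of 2078 hexamers tested, 430 (20.7%) were more frequent at the summit and 717 less frequent. By the log2 ratio of windows (pseudocount of 1 window), CGTGAC was first, with 209 summit windows and 13 upstream (log2 ratio 3.91, exact McNemar, adjusted p = 1.45e-47), and CGTCAC was next (121 and 8, log2 ratio 3.76). The other hexamers of the top 10 each held a CG dinucleotide, such as CGGCCG (69 and 5), and CCGGAA, part of the ETS string (158 and 16). Promoters without a peak held CGTGAC in 2.52% of windows, against 25.3% at the summits, and within GC bins its odds ratio was 9.74 (Mantel-Haenszel chi-square test, adjusted p = 4.45e-173). Those of the other 9 ranged from 0.995 for CGGCCG to 2.71 for ACGCGG. Among all promoters, 4.83% of windows held CGTGAC. The hexamers that ranked last were rich in A and T, such as ATTATA with 0 summit and 34 upstream windows. The count of 430 was 173 with the control window downstream of the summit and 261 with the stronger 50% of peaks.

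Distal peaks without either E-box carried the near E-boxes in other proportions. CAGGTG was found in 46.3% of the 817 distal windows and 22.9% of the promoter windows (odds ratio 0.345, Fisher's exact test, adjusted p = 1.83e-22). CGCGTG showed the reverse, with 3.18% and 25.6% (10.4, 8.92e-41). The GC box (4.41% and 24.7%, Fisher's exact test, adjusted p = 1.14e-32) and ETS (1.35% and 6.42%, 3.67e-07) were more frequent at promoters. AP-1 (82 and 23 windows, 8.07e-09), NF-kappaB, GGGANTTTC (3.92% and 0.485%, 3.95e-06), PU.1, GAGGAAGT (3.06% and 0.848%, 0.00234), and the octamer ATTTGCAT (1.84% and 0.364%, 0.00787) were among the 10 strings more frequent at distal peaks, as were HSF (3.06% and 1.21%, 0.0175) and the nuclear receptor string (5.26% and 2.18%, 0.00224). Of the 31 strings compared, 10 were more frequent at promoters. EBF (3.92% and 3.39%, 0.642) and IRF (0.734% and 0.242%, 0.211) did not pass. CCAAT boxes were found in 10.4% and 10.1% (0.871). Any near E-box was found in 66.6% of distal and 69.2% of promoter windows.

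Near E-boxes were more frequent at the stronger of these peaks, as were those followed by AC. In the 413 stronger of the 825 peaks, 321 (77.7%) held a near E-box, against 250 of the 412 weaker (60.7%, odds ratio 2.26, 1.65 to 3.11, Fisher's exact test, p = 1.18e-07). Those followed by AC were found in 37.8% and 16.3% of them (odds ratio 3.12, 2.22 to 4.41, Fisher's exact test, p = 3.21e-12). Among the 165 strongest peaks (signal 113 and above), 81 (49.1%) held a near E-box followed by AC, and among the 165 weakest (33.3 and below), 28 (17.0%). CAGGTG was found in 33.3% of the strongest 165 and 14.5% of the weakest 165, and CGCGTG in 24.8% and 24.2%. The GC box was found in 27.3% and 22.4%. Median signals were 61.9 with CAGGTG, 62.4 with CTCGTG, 48.0 with CGCGTG and 48.5 with CCCGTG. This comparison was added after the strongest sites had been seen.

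**Figure D4:**
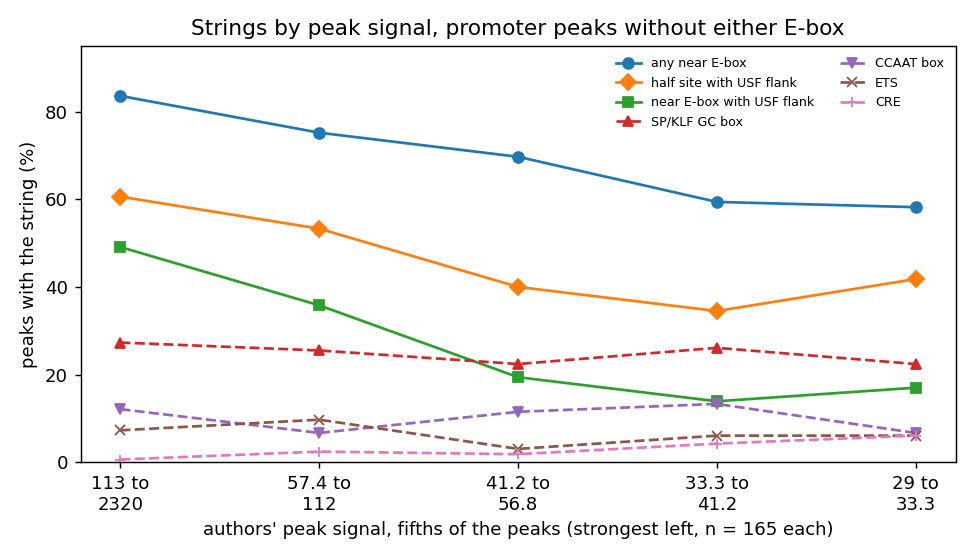
Share of peaks (%) that hold each string, in 5 groups of 165 promoter peaks without either E-box ordered by the authors' signal, strongest left. A near E-box followed by the USF flank AC was found in 49.1% of the strongest group and 17.0% of the weakest, and the SP/KLF GC box in 27.3% and 22.4%.

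Neither kind of string was found in 102 of the 825 windows (12.4%), which held no near E-box and none of the 10 motif strings. Their median signal was 39.3. Near E-boxes with at least 1 of the 10 strings were found in 358 (43.4%, median signal 55.2), near E-boxes alone in 213 (25.8%, 48.1) and a motif string alone in 152 (18.4%, 42.1). These combined shares are not given for other promoters, so they cannot be read as particular to these peaks. The 10 strings include the GC box, NRF1, the CRE and the CTCF core, which were not more frequent than at promoters of like GC share. A string found in a window does not show that its factor was bound there.

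The frequency of intact E-boxes just outside the window was compared with that farther out. Either E-box lay in a zone that starts 57 bp from the summit and spans 100 bp on each side at 79 of the 825 (9.58%, 7.75 to 11.8). In an equal zone farther out it lay at 87 (10.5%, 8.63 to 12.8), with 69 peaks holding it only in the near zone and 77 only in the far (exact McNemar p = 0.563). For the CG E-box alone the counts were 39 (4.73%) and 25 (3.03%, exact McNemar p = 0.0869). Set against a zone about 1 kb away, the near zone held fewer (ratio of discordant peaks 0.674, exact McNemar p = 0.0108). Stat3 is an example of a CG E-box beyond the window, at 85.5 bp. Another peak of the list lay within 1 kb of 76 of the 825 summits (9.21%), and in 44 cases (5.33%) it was a peak with a CG E-box. A stronger peak lay within 1 kb of 54 (6.55%).

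The replicates were compared through the mm10 lists, which are in another build. Peaks were joined by gene, using RefSeq start sites (GRCm38.p6). A summit joined this way need not be that of the same peak, since another peak can lie near the start. After 61 genes with peaks of both kinds were left out, 620 of 750 genes were matched by symbol or synonym, and 1163 of 1442 genes with a CG E-box peak. A summit of the optimal list, which keeps regions reproducible between replicates, lay within 1 kb of the start of 393 of the 620 genes (63.4%, 59.5 to 67.1) and 989 of the 1163 (85.0%, 82.9 to 87.0). The odds ratio was 0.305 (0.241 to 0.386, Fisher's exact test, p = 1.63e-24). This difference went with signal and turned direction within 5 bins of mm9 signal, where the odds ratio was 1.37 (Mantel-Haenszel chi-square test, p = 0.0698). In the strongest bin, 86 of 89 genes (96.6%) and 614 of 635 genes (96.7%) had an optimal summit, and in the weakest bin 42 of 190 (22.1%) and 14 of 77 (18.2%).

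Single peaks were also placed in mm10 by an exact match of the 61 bases around the summit to the RefSeq promoter sequences of GRCm38.p6. This placed 418 of the 825 (50.7%), those close to a RefSeq start. The replicates' own lists are relaxed ones that hold background as well as peaks. Of the 418 placed peaks, a region of replicate 1 covered 386 (92.3%) and a region of replicate 2 covered 412 (98.6%), a mean of 95.5% ± 4.40 (SD, n = 2), and 2 were covered in neither. In the optimal list 283 of the 418 (67.7%, 63.1 to 72.0) were covered, against 557 of 590 CG E-box peaks placed the same way (94.4%, 92.2 to 96.0). The placed CG E-box peaks were stronger than that group as a whole, with a median mm9 signal of 584 against 212, while the placed peaks without either USF E-box had 49.6 against 47.2. No comparison within bins of signal was made for the placed peaks. For the covered peaks without either USF E-box, the mm10 summit lay a median of 1 bp from the mm9 summit.

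Of the 25 strongest peaks, 15 were placed in mm10, and all 15 were covered in the optimal list. In the mm10 lists, whose signal has another scale than that of mm9, Dnajc13 had 238 in replicate 1 and 293 in replicate 2. Nrd1 had 279 and 282, Myst2 had 219 and 240, and Rnf181 had 197 and 239. Dnajc16, with its E-box at the window edge, had 231 and 265. Fig4, with 169 and 237, differed more. Replicate 2 was higher at each of these.

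Map1lc3b, also among the 25 strongest peaks by mm9 signal (694), had lower mm10 values, 76.1 in replicate 1 and 110 in replicate 2. Peaks weaker in mm9 were also found in both replicates. Suz12 had 125 and 126, and Ddit3 had 118 and 132. Cdc25a, at 46.6 and 33.0, was lower in replicate 2. Across the 382 peaks found in both, the median signal was 21.6 in replicate 1 and 25.8 in replicate 2, a mean of 23.7 ± 2.96 (SD, n = 2). Replicate 2 was higher at 253, and the median log2 ratio was 0.16 with an SD of 0.56 across peaks, against 0.15 with an SD of 0.30 at CG E-box peaks. The replicates differed by more than 2-fold at 37 of the 382 (9.69%) and at 1.37% of the placed CG E-box peaks, which were stronger.

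**Figure D5:**
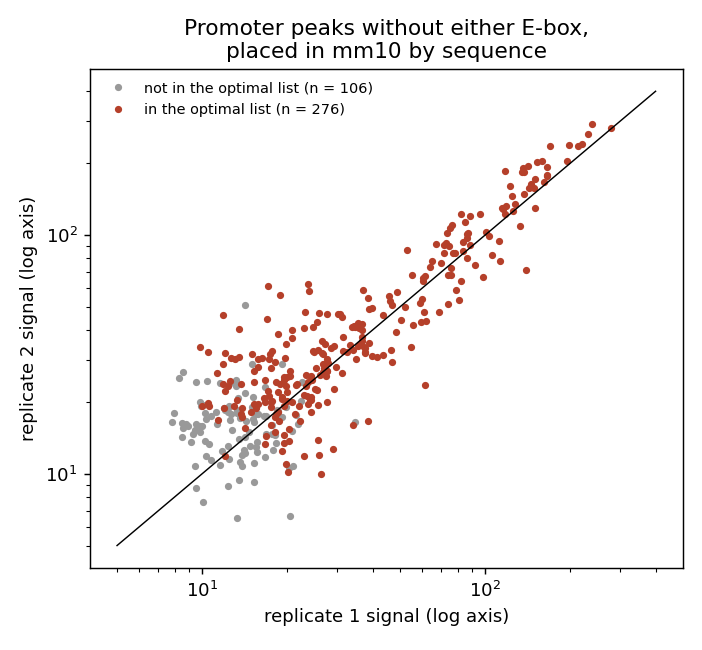
Signal in replicate 1 and replicate 2 (mm10 lists, log axes) of the promoter peaks without either E-box that were placed in mm10 by sequence and covered in both replicates, with the line of equal signal. The 276 peaks in the optimal list reached 279 in replicate 1 and 293 in replicate 2, and the 106 peaks outside it stayed at or under 34.8 and 51.0.

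The genes at these promoters were described with 24 gene lists, with no test. Of 22359 protein-coding genes, 819 (3.66%) had a peak without either E-box within 1 kb of a 5′ end, and 1513 (6.77%) had a CG E-box peak. The vacuolar ATPase, the proton pump of lysosomes, had 4 of 16 genes (95% interval of the share 10.2 to 49.5%) in the first group and 7 (43.8%) in the second. They were Atp6v1g1 (signal 201), Atp6ap1 (86.8), Atp6v1e1 (76.3) and Atp6ap2 (47.5). Lysosomal genes had 5 of 33 (15.2%, 6.65 to 30.9) and 15 (45.5%). Psap, the precursor of the saposins (325), Manba, a beta-mannosidase (187), and Gnptab, of the mannose 6-phosphate pathway (37.1), were among them. Autophagy genes had 2 of 26, Map1lc3b and Gabarap (47.2), and 8 with a CG E-box peak (30.8%). Another peak of the mm9 list lay within 1 kb of the summits at Atp6v1g1, Atp6v1e1, Manba and Gabarap. The same held at E2f1, Mrpl45 and Eif5, named below.

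Genes of the endoplasmic reticulum, cell cycle, mitochondrial ribosome and chromatin are described next. In the endoplasmic reticulum stress list 3 of 19 genes (15.8%) had a CG E-box peak. A peak without either USF E-box was found at 4 (21.1%, 8.51 to 43.3). Ddit3, the stress-induced transcription factor CHOP, had a signal of 377, Herpud1, a degradation component, 62.3, Edem1, which directs misfolded glycoproteins to degradation, 54.9, and Sel1l, the adaptor of the ligase HRD1, 31.3. Cell cycle genes had 7 of 48 (14.6%, 7.25 to 27.2), led by E2f1 (263), Cdc25a (117), Cdk2 (49.7) and Cdc25c (44.4). With a CG E-box peak there were 6 (12.5%). Mitochondrial ribosome genes had 8 of 75 (10.7%, 5.50 to 19.7) and 4 with a CG E-box peak (5.33%). Mrps18a (271), Mrpl45 (197), Mrpl52 (87.5) and Mrpl12 (61.4) were the strongest. Of the chromatin regulators matched by symbol, 5 of 53 (9.43%) had a peak without either USF E-box, and 10 (18.9%) had a CG E-box peak. The 5 included Suz12, a core subunit of Polycomb complex PRC2 (382), and Mbd2, a reader of methylated DNA (114). Kdm2b, a histone demethylase (88.6), and Kat2a, an acetyltransferase (45.3), were also among them. Kat7 and Kmt2b of this list were not matched by symbol and not counted. Under their older symbols, Myst2 (1265) and Wbp7 (54.4), both had a peak without either USF E-box.

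Lists near or below the share of all genes included the ribosome and cell type lists. The cytosolic ribosome had 3 of 78 (3.85%, Rpl11, Rpl31 and Rps2) and 12 with a CG E-box peak (15.4%). Oxidative phosphorylation had 3 of 77 (3.90%) and the proteasome 1 of 40 (Psmd2). No tRNA synthetase (0 of 36), replication-dependent histone (0 of 53), T cell marker (0 of 19), liver marker (0 of 20) or neuron marker (0 of 16) had such a peak. Of 29 B cell identity genes, 1 did, Cd79b, a subunit of the B cell receptor (signal 47.0, summit window with CAGCTG and no near E-box), and 7 (24.1%) had a CG E-box peak. Mitf (81.5) and Usf2 (32.3), members of the same protein family as USF1, had peaks without either USF E-box. The Usf2 window, 234 bp downstream of the 5′ end, held CAGGTG followed by AC.

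The remaining lists held few such genes, though the share in several lay above that of all genes. Spliceosome genes had 4 of 54 (7.41%, led by Snrpb at 216), replication and repair genes 4 of 52 (7.69%, led by Mcm3 at 84.7), translation initiation 3 of 35 (8.57%, led by Eif5 at 89.9) and RNA polymerase and Mediator 3 of 55 (5.45%, led by Med6 at 33.8). In the same order, the shares with a CG E-box peak were 9.26%, 7.69%, 28.6% and 16.4%. Antigen presentation had 1 of 18 (Tapbp, 92.6), heat shock and chaperonin genes 1 of 28 (Hspa4, 31.9), the basic helix-loop-helix zipper family 2 of 17 (11.8%), and the list of ETS, SP, NRF1 and NF-Y type factors 2 of 41, Atf2 (229) and Yy1 (32.3). Intervals of most lists include the share of all genes.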

How the data were processed

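The submitters deposited peak lists from 2 USF1 ChIP-seq replicates. Per the deposited readme files, the mm9 list was derived from both replicates' mm9 alignments, each replicate has a relaxed mm10 list of peaks and background, and the optimal and conservative lists were thresholded by IDR (irreproducible discovery rate). No source here names the peak caller, the aligner or the scale of the values. The signal of each region was used as deposited by the authors. Column 9 of the mm9 list was read as the authors' −log10 q-value, and in the deposited mm10 lists as a score. Both served only to break ties in signal. The replicate lists held 25978 and 44551 regions, the optimal list 8108 and the conservative list 7356.

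Summits were start plus offset. Coordinates are 1-based, and none was converted between builds. Windows came from NCBIM37 (mm9) and 5′ ends from Gencode vM1. Strings were searched on both strands. Shares were tested with exact McNemar tests (paired windows) or Fisher's exact test, two-sided, and within bins with the Mantel-Haenszel test (scipy 1.17.1, statsmodels 0.14.6), adjusted by Benjamini-Hochberg within each family at a threshold of 0.05. Overlapping windows and neighbouring genes are not independent. Intervals are 95% Wilson intervals of counting error. For a count of 0 the limit given is 3 counts. The scripts recovered planted strings in simulated windows. The 944 gene list entries gave 938 gene records matched by symbol, and some entries matched more than 1 record. Entries without a match included Kat6a, Kat7, Kmt2a, Kmt2b, Kmt2c, Kmt2d, Spi1, Syk, Tfe3, Tfeb, Tfec and Usf3. The shares of the lists that name them leave them out.

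The peaks and lists were chosen with earlier results of these data known. Named genes are the 25 of highest signal, up to 4 per gene list, up to 3 per called string and the 2 of lowest signal. Which sites to print, and the naming of Ap3d1, Zfp207, Rap1gap, Dyrk1b and Wbp7, were chosen after the values were seen. Alternatives changed the window, distance limit, control, strength, list and chromosomes, and comparisons with promoters without a peak, without chromosomes 11 and 16, and by sequence placement were added after seeing the data. The comparisons of flanks, of CANNTG strings and of near E-box positions in the window were not among those planned. A named gene of the lysosome list is not reported here.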

Additional observations from a re-analysis of the deposited data

How the results depend on the processing

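No paired analysis was possible because the study has 1 group, so no replicate numbers are shared between groups. Counts of near E-boxes and motif strings higher at the summit stayed within 1.5 times under every alternative tried, at 4 to 6 and 8 to 12. The strings behind the counts changed. Against promoters of like GC share, 6 of the 8 motif strings called were among the 10 reported, and the GC box was less frequent at the peaks (odds ratio 0.613). Among near E-boxes, TACGTG was called there and GACGTG was not. The count of hexamers was 173 with the control window downstream and 261 with the stronger 50% of the mm9 peaks. Motif strings that differed from CG E-box peaks numbered 3 with the stronger 50% of peaks and 3 within 500 bp of a 5′ end. The E-box zone ratio, 0.897 as reported, was 0.674 (exact McNemar p = 0.0108) against the zone about 1 kb away. The odds ratio for an optimal summit, 0.305, turned to 1.37 within 5 bins of signal. It was 0.258 without replicate 2 and 0.314 without replicate 1, and the other alternatives gave 0.124 to 0.506. The cause was not tested in any of these. The distance result passed under all 5 alternatives. Depth is unknown, so the counting error of a single weak peak cannot be given.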
